A study of Mus musculus with 60 samples.

Results

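The comparison set R1 mouse embryonic stem cells exposed to 0.35 mM (+/-)-Thalidomide in 0.1% DMSO for 6 h against R1 cells that received 0.1% DMSO alone over the same time. Arrays were assigned by their treatment label, which gave 6 of the 60 arrays of the series, 3 in each group, and every probe set with 1 gene symbol was read, 21789 of 35556. R1, a long-used line of mouse embryonic stem cells, is an established cell line. Its cells had been kept on feeder cells, were depleted of them before seeding, and were undifferentiated and attached during exposure. The whole series holds 19 compounds, each given for 6 h and read on 3 arrays, beside the DMSO arrays. Of these, 10 are described as teratogens, thalidomide among them, and 9 as non-teratogens. Penicillamine, chlorthalidone, hydrochlorothiazide, dimethadione, fluconazole, topiramate, paracetamol, sulfasalazine and valproic acid were given at 1 mM. Clozapine, azacytidine, glybenclamide, retinoic acid, dexamethasone, loratadine, metoclopramide, ondansetron and methotrexate, the rest of the other 18, were given at 0.37 mM or less. Each compound's concentration was limited by cell viability, by solubility or by a fixed ceiling, and the labels do not say which of these set the thalidomide dose. Cells of all groups shared the genotype, the medium and the solvent. The labels call the arrays of a group triplicates without saying that they came from separate cultures, so p-values measure the spread between arrays, which may be technical.

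Thalidomide is a glutarimide drug that caused limb and organ defects in children exposed before birth. It binds cereblon (Crbn), which recruits substrates to a ubiquitin ligase built from Ddb1, Cul4a or Cul4b and Rbx1, and the bound drug makes the ligase degrade proteins it would otherwise leave alone, such as Ikaros family factors and the zinc finger protein SALL4 in human cells. Mouse cereblon supports much less of this degradation, and mice do not develop the limb defects. The arrays read RNA, so a loss of protein would be seen here only through a later change in transcripts.

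Thalidomide moved no transcript past the threshold. With limma over all 60 arrays and Benjamini-Hochberg adjustment, 0 of 21789 probe sets (0%) had an adjusted p under 0.05 between thalidomide and DMSO, and the smallest adjusted p was 0.141. At an unadjusted p under 0.05 there were 1658 probe sets (7.61%), of which 501 were higher (2.3%) and 1157 lower (5.31%) with thalidomide. The median size of a difference was 0.0611 on the log2 scale, against a median standard error of 0.0788. No probe set differed by 2-fold and 3 differed by 1.5-fold. The 95% interval of the difference lay inside 1.5-fold in both directions for 21687 probe sets (99.532%), and inside 2-fold for 21786 (99.986%). The 3 probe sets past 1.5-fold were 2 of the small nucleolar RNA gene Snord58b and 1 of Ssh2, which encodes a cofilin phosphatase.

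Snord58b guides ribosomal RNA modification, and its probe sets carried the largest positive differences. One Snord58b probe set read 5.82, 5.42 and 5.47 on the thalidomide arrays, against 5.05, 4.63 and 4.85 on the DMSO arrays (log2 signal), a difference of 0.72 (SE 0.24, limma adjusted p = 0.554). The other read 5.81, 5.46 and 5.48 on the thalidomide arrays, against 5.08, 4.67 and 4.86 on the DMSO arrays, so the groups did not overlap on either. They may share target sequence and count as 1 observation. The Ssh2 probe set read 7.24, 7.04 and 6.73 on the thalidomide arrays, against 6.41, 6.11 and 6.59 on the DMSO arrays, with all thalidomide values above all DMSO values, and its difference was 0.64 (SE 0.18, limma adjusted p = 0.519). Within the list of small nucleolar and Cajal body RNAs, 28 of 39 genes were measured, 14 were above and 14 below 0, and their median difference was 0.001. These 3 probe sets were named for their size after their values were seen.

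The 6 arrays carried embryonic stem cell RNA. The mean signal of 11 stem cell markers lay between 12.08 and 12.09 on the thalidomide arrays and between 12.03 and 12.07 on the DMSO arrays (log2). The 19 measured fibroblast and feeder markers averaged 9.06 to 9.11 on thalidomide arrays and 9.08 to 9.13 on DMSO arrays, and none of either list was called. In such bulk RNA, fewer cells of a type and less RNA per cell cannot be told apart. No 2 arrays of the series held identical values. The titles of thalidomide arrays 1 and 3 carry a letter b whose meaning is not given, those of the DMSO arrays do not, and 8 arrays of the series have it. The interquartile range of signal was 3.07, 3.03 and 2.95 on the thalidomide arrays, against 2.92, 2.82 and 3.03 on the DMSO arrays. DMSO array 2 had the narrowest range of the 6, and without it the number of probe sets at an unadjusted p under 0.05 was 547 in place of 1658. It was 727 without thalidomide array 1 and 2673 without DMSO array 3.

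The cereblon list held ligase subunits, neosubstrates and genes linked to cereblon in other ways, among them Glul, Meis2, Bsg and Slc16a1. Of 22 listed genes 21 were measured, on 24 probe sets, and none was called. Their differences ran between -0.21 and 0.10 on the log2 scale, the lowest adjusted p was 0.606, and the 95% intervals together spanned -0.49 to 0.26. Crbn, the drug's receptor, read 10.59, 10.55 and 10.52 on the thalidomide arrays, against 10.48, 10.50 and 10.52 on the DMSO arrays, and the lowest thalidomide value lay just above the highest DMSO value, by less than this rounding shows. The difference for Crbn was 0.05 (SE 0.07). The adaptor Ddb1 differed by 0.01 (SE 0.04), and the scaffold genes Cul4a and Cul4b by -0.0029 (SE 0.07) and 0.07 (SE 0.06). Both probe sets of the RING subunit gene Rbx1 were measured, and they differed in sign, at -0.07 and 0.09.

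Among the listed genes other than the ligase subunits, the lowest p were those of Trp63, Glul on 1 of its 2 probe sets, Zbtb16 and Ikzf1. Trp63, which encodes the epithelial transcription factor p63, read 7.40, 7.46 and 7.44 on the thalidomide arrays, against 7.63, 7.55 and 7.60 on the DMSO arrays. Its groups did not overlap, and its difference was -0.16 (SE 0.07) with an adjusted p of 0.606 in limma. Zbtb16, the gene of the transcription factor PLZF, differed by -0.18 (SE 0.10), and the lymphoid factor gene Ikzf1 by -0.16 (SE 0.09). Trp63, Zbtb16 and Ikzf1 had log2 signals between 6.92 and 7.71 on the 6 arrays, and p63 and Ikaros are not defining factors of embryonic stem cells. The other Ikaros family members read, Ikzf2 and Ikzf3, differed by -0.11 (SE 0.07) and -0.05 (SE 0.10). The casein kinase gene Csnk1a1 differed by 0.05 (SE 0.05) and the translation termination factor gene Gspt1 by 0.09 (SE 0.06). The 2 probe sets of Glul, the glutamine synthetase gene, gave -0.14 and 0.03, with adjusted p-values of 0.611 and 0.928 in limma, and the first had groups that did not overlap. The remaining members were Bsg and Slc16a1, which encode a cell surface glycoprotein and the lactate transporter it chaperones, Kcnma1, Meis2, Prkaa1, Rnf166 and Zfp692, and the lowest adjusted p among them was 0.739, for Kcnma1.

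Sall4, the neosubstrate gene most tied to the limb defects, was strongly expressed. It read 12.33, 12.41 and 12.42 on the thalidomide arrays, against 12.40, 12.44 and 12.44 on the DMSO arrays (log2), and the groups overlapped. The difference for Sall4 was -0.04 (SE 0.04), with a 95% interval of -0.13 to 0.04. Sall1 differed by 0.02 (SE 0.05). Sall2 and Sall3 differed by -0.13 (SE 0.07) and -0.12 (SE 0.07), and Sall2 read 8.21, 8.16 and 8.12 on the thalidomide arrays, against 8.22, 8.22 and 8.44 on the DMSO arrays, so its highest thalidomide value lay just below its lowest DMSO value. The Sall2 difference was -0.054 without DMSO array 3, and the Sall3 difference was -0.038 without thalidomide array 1 and -0.07 without DMSO array 2. None of the 4 genes had an adjusted p under 0.665.

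**Figure D1:**
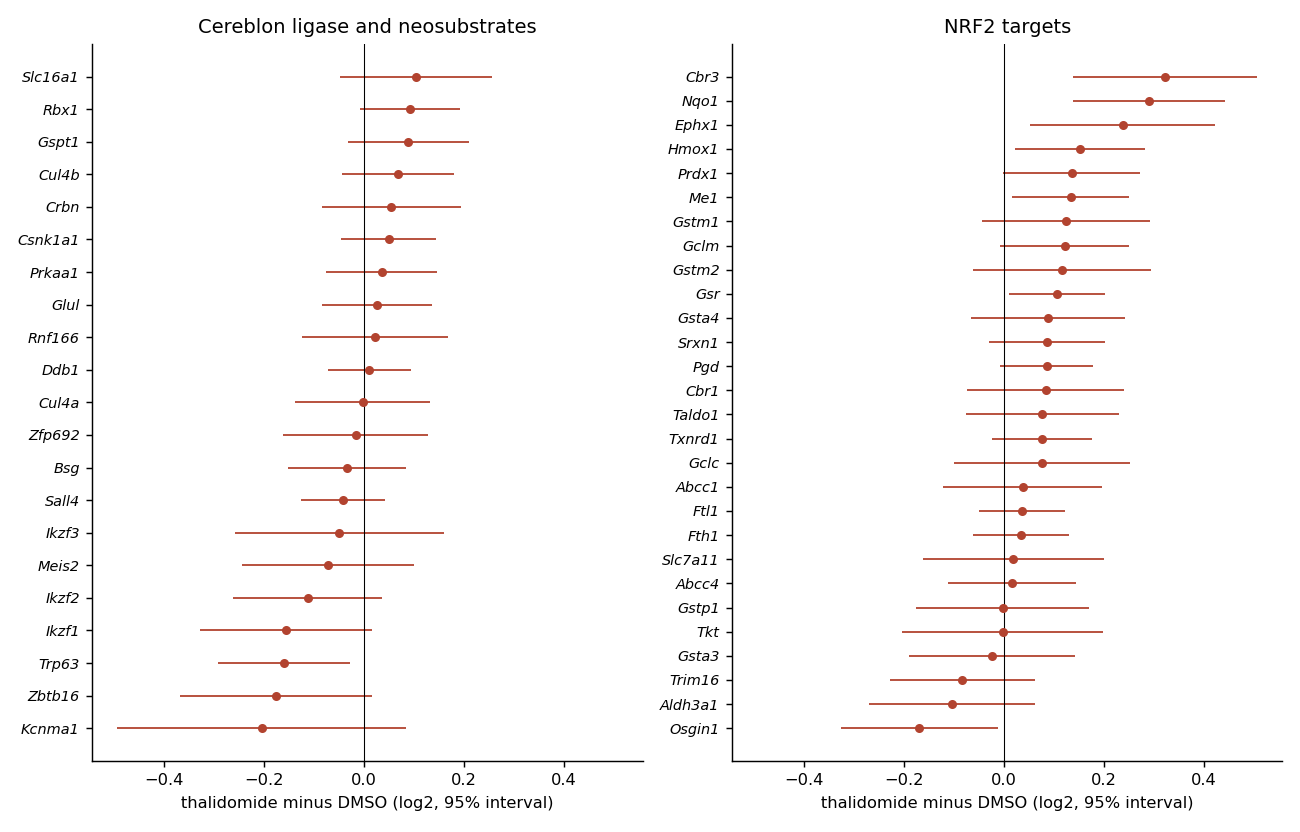
Difference between thalidomide and DMSO for the members of 2 gene lists, with 1 probe set per gene (the one with the highest mean signal). Points are limma estimates on the log2 scale and bars are 95% intervals from all 60 arrays. The cereblon list spreads around 0, between -0.21 and 0.10. Of 28 NRF2 targets 22 lie above 0, where 61.7% of probe sets at or above the median level were positive. No member of either list passed the adjusted threshold.

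Genes of limb outgrowth and patterning were measured for all 32 listed, and none was called. At an unadjusted p under 0.05, 1 was higher and 4 were lower, against 2.3% and 5.31% of all probe sets, and the list's median was -0.032, against -0.014 over all probe sets. En1, which specifies the ventral limb ectoderm, had the lowest p. It read 7.61, 7.50 and 7.71 on the thalidomide arrays, against 7.86, 8.03 and 7.87 on the DMSO arrays, with all thalidomide values below all DMSO values, and differed by -0.32 (SE 0.08) with an adjusted p of 0.443 in limma. The forelimb factor gene Tbx5 read 6.24, 6.23 and 6.18 on the thalidomide arrays, against 6.32, 6.53 and 6.44 on the DMSO arrays, a difference of -0.22 (SE 0.09), also without overlap. Shh, the ligand of the polarizing region, differed by -0.20 (SE 0.09), and its groups overlapped. Among the growth factors of the limb bud, Fgf8 differed by -0.17 (SE 0.09) and Fgf10 by 0.05 (SE 0.08). En1, Tbx5 and Shh lay below the median signal of all probe sets (8.09).

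Pathways often named with thalidomide gave the same absence of calls. Bmp4, a morphogen that embryonic stem cells also express, read 11.64, 11.71 and 11.60 on the thalidomide arrays, against 11.56, 11.45 and 11.53 on the DMSO arrays, so the groups did not overlap, and its difference was 0.13 (SE 0.06) with an adjusted p of 0.646 in limma. Its receptor gene Bmpr1a differed by 0.14 (SE 0.07), and the Wnt antagonist gene Dkk1 by -0.07 (SE 0.08). Among 27 angiogenesis genes, the TGF-beta coreceptor gene Eng differed by 0.16 (SE 0.07) and the endothelial growth factor gene Vegfa by 0.12 (SE 0.06). Vegfa read 9.14, 9.21 and 9.12 on the thalidomide arrays, against 9.03, 9.03 and 9.04 on the DMSO arrays, again without overlap. Among 19 measured genes of the NF-kappaB and TNF list, the chemokine gene Ccl2 differed by 0.19 (SE 0.07) and Tnf itself by -0.06 (SE 0.08).

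Among probe sets chosen for groups that did not overlap, those with the lowest p were headed by Cirbp, the cold-inducible RNA-binding protein gene. Cirbp read 9.63, 9.89 and 9.79 on the thalidomide arrays, against 9.35, 9.45 and 9.43 on the DMSO arrays, so each thalidomide value lay above each DMSO value. Against the mean of the other 18 compounds Cirbp differed by 0.02 (SE 0.05), and its thalidomide mean ranked 7 of 20 from the top. Its difference from DMSO was 0.36 (SE 0.07), with an adjusted p of 0.141 in limma. It passed the adjusted threshold when the titles' letter b was a covariate (adjusted p = 0.0335), when only probe sets at or above the median level were tested (0.0424) and when thalidomide array 1 was left out (0.027). Its cold-inducible relative Rbm3 had 3 probe sets, whose differences were 0.11, 0.13 and 0.13, with adjusted p-values of 0.606, 0.565 and 0.601. The brightest Rbm3 probe set read 13.01, 13.03 and 13.06 on the thalidomide arrays, against 12.90, 12.92 and 12.96 on the DMSO arrays. Rbm3 was named after its values were seen.

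Cyb561a3, a ferrireductase of the cytochrome b561 family, read 9.03, 8.92 and 8.99 on the thalidomide arrays, against 8.63, 8.70 and 8.70 on the DMSO arrays. The groups were separate, and the difference was 0.30 (SE 0.06) with an adjusted p of 0.141 in limma and of 0.0424 among probe sets at or above the median level. Eif2ak2, the kinase PKR that answers double-stranded RNA, read 8.73, 8.66 and 8.69 on the thalidomide arrays, against 8.33, 8.33 and 8.41 on the DMSO arrays, a difference of 0.34 (SE 0.08). Ddit4l, a relative of the mTORC1 inhibitor Redd1, read 9.51, 9.55 and 9.45 on the thalidomide arrays, against 9.21, 9.18 and 9.23 on the DMSO arrays. For both genes every thalidomide value exceeded every DMSO value. The quinone reductase gene Nqo1 read 9.88, 9.83 and 9.76 on the thalidomide arrays, against 9.52, 9.45 and 9.63 on the DMSO arrays, and its difference was 0.29 (SE 0.08). The other leading genes on the higher side were Rnf128, a ubiquitin ligase, Fuca2, a secreted fucosidase, Fkbp1b, a ryanodine receptor partner, Fndc10, Plk2, a polo-like kinase, Stk32a, Cflar, a caspase-8 regulator, the lysosomal membrane protein gene Cd68 and Marcksl1. Their differences ran between 0.24 for Fuca2 and 0.33 for Fndc10, with adjusted p-values between 0.443 and 0.519.

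On the lower side, the leading probe sets belonged mostly to genes with low signal. Of the 14 leading lower probe sets 13 lay below the median signal, against 3 of the 14 leading higher ones. Beside En1, the homeobox gene Irx2 read 8.26, 8.40 and 8.26 on the thalidomide arrays, against 8.57, 8.61 and 8.47 on the DMSO arrays, a difference of -0.24 (SE 0.07). Nlrp1a, an inflammasome sensor, had the largest difference of these 14 at -0.40 (SE 0.10), and read 5.37, 5.27 and 5.19 on the thalidomide arrays, against 5.69, 5.88 and 5.45 on the DMSO arrays. The others included the netrin receptor gene Unc5d at -0.30 (SE 0.07), the olfactory receptor gene Olfr894 at -0.34 (SE 0.09), Abhd3 at -0.32 (SE 0.08), Hivep3 at -0.26 (SE 0.07) and the matrix protein gene Hmcn1 at -0.35 (SE 0.09). Hmcn1 was covered by 77 probe sets, whose differences from DMSO ran between -0.35 and 0.16. Unc5d values came closest to meeting, at 7.10 on the highest thalidomide array and 7.11 on the lowest DMSO array. None of the 14 had an adjusted p below 0.443.

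**Figure D2:**
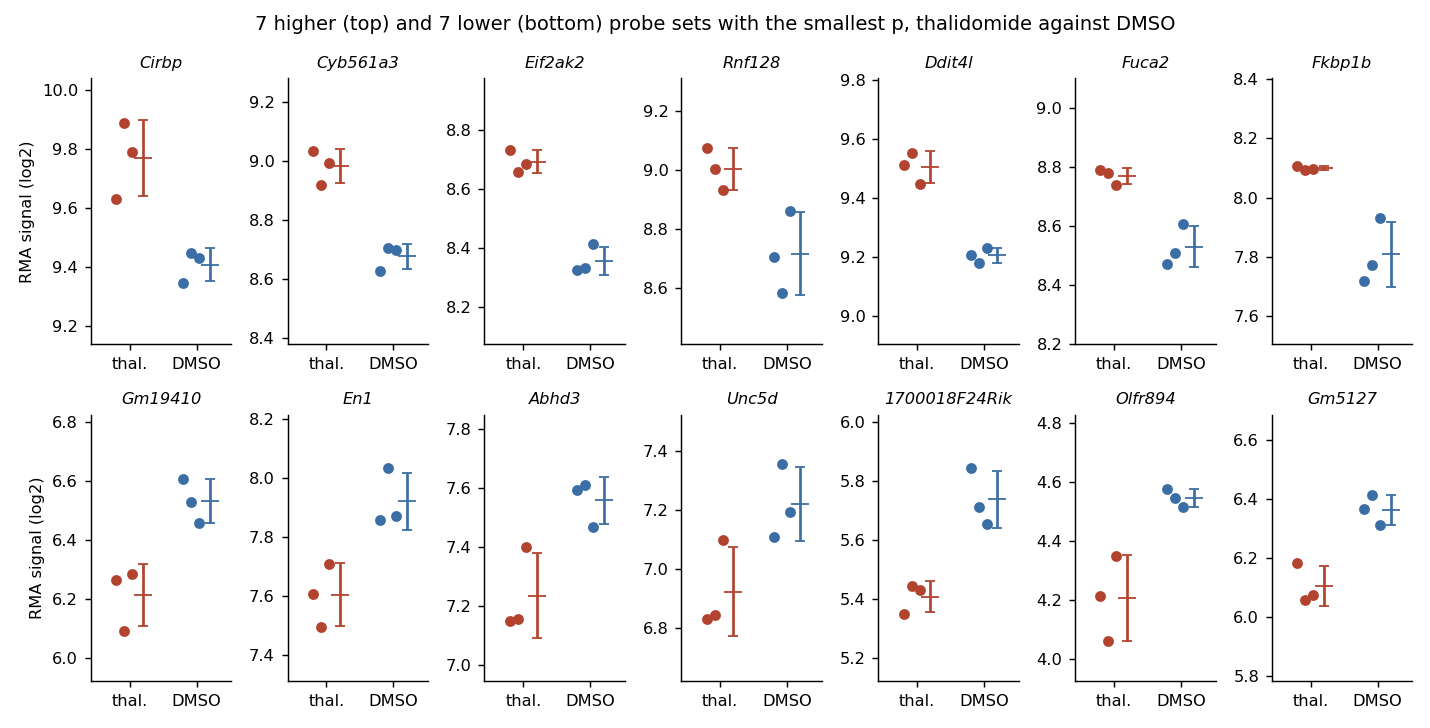
Log2 RMA signal of the 7 higher (top) and 7 lower (bottom) probe sets with the lowest p among those without overlap, on each of the 3 thalidomide arrays (red) and 3 DMSO arrays (blue). Bars give the mean and SD, and all panels span the same number of log2 units. The probe sets were chosen from those whose groups did not overlap, so every panel shows separate groups, and the lowest adjusted p of those drawn was 0.141.

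DMSO stood at the edge of the series for these same genes, and on the lower side so did thalidomide. Among the 20 group means, where rank 20 is the lowest, DMSO ranked between 16 and 20 for all 14 leading higher probe sets. For all 14 leading lower ones DMSO ranked between 1 and 5. Thalidomide ranked between 1 and 10 for the higher ones and between 16 and 20 for the lower ones. On the lower side thalidomide had the lowest mean for 7 and DMSO the highest for 6. On the higher side thalidomide had the highest mean for 1 and DMSO the lowest for 2. For each leading higher probe set between 14 and 18 of the other 18 compound means exceeded the DMSO mean. For each leading lower one between 14 and 18 lay below it. These counts include no thalidomide value among the 18, but they share the 3 DMSO arrays with the comparison that chose the genes. The probe sets were chosen for a gap between DMSO and thalidomide, and ranks over all probe sets were not summarised.

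Direction followed signal level. Among 10895 probe sets at or above the median level, 61.7% were positive and the median difference was 0.019. Among 10894 below it, 26.1% were positive and the median was -0.062. Of the 1157 probe sets lower at an unadjusted p under 0.05, 86.6% lay below the median level, against 20.6% of the 501 higher ones. The interquartile ranges of the arrays overlapped between groups, at 2.95 to 3.07 with thalidomide and 2.82 to 3.03 with DMSO. Their part in this pattern was not tested beyond a fit with the range as a covariate. That fit gave 981 probe sets at an unadjusted p under 0.05 in place of 1658. Of the probe sets at an unadjusted p under 0.05, 43% were higher after quantile normalization (1429 probe sets), beside 30.2% on the values as deposited.

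**Figure D3:**
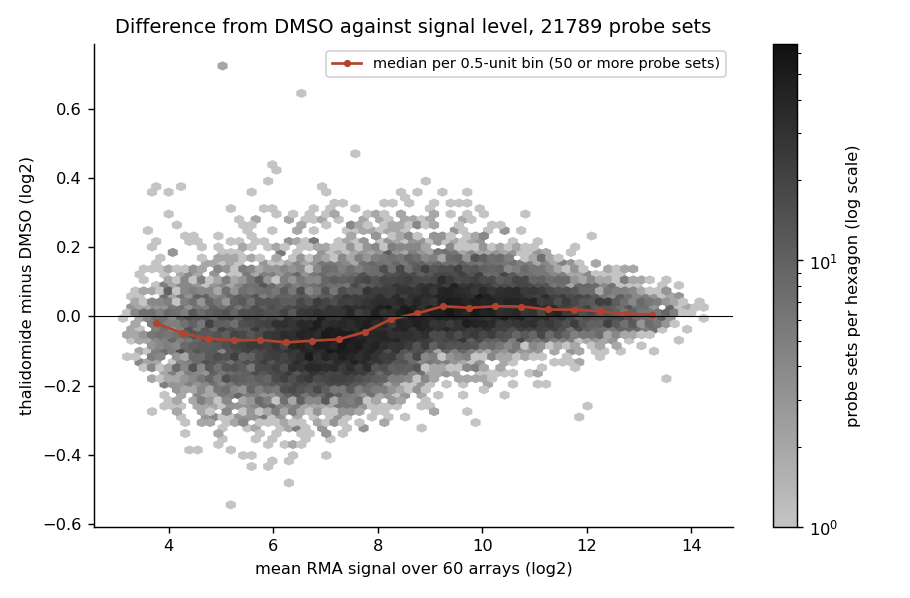
Difference between thalidomide and DMSO (log2, vertical) against the mean signal over 60 arrays (log2, horizontal) for 21789 probe sets, with the number of probe sets per hexagon in grey. The red line joins the medians of bins holding 50 or more probe sets. It lies below 0 at low signal and slightly above 0 at high signal.

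NRF2 (Nfe2l2) is the transcription factor that answers oxidants and electrophiles by binding antioxidant response elements, DNA sites with the core TGACNNNGC, beside genes for quinone reduction, glutathione synthesis and NADPH supply. Of 32 listed targets 28 were measured, and none was called. At an unadjusted p under 0.05, 6 were higher and 1 was lower, against 2.3% and 5.31% of all probe sets. Without overlap 12 were higher, against 6.94% of all probe sets, and 2 were lower, against 8.3%. The median difference was 0.08, against -0.014 over all probe sets and 0.019 over those at or above the median level. Of the 28, 22 were above 0, where 61.7% of probe sets at or above the median level were positive. Under the 11 alternatives tried the median stayed between 0.048 and 0.1, and between 19 and 24 targets were above 0. Without DMSO array 2, 3 targets were higher at an unadjusted p under 0.05 and none was lower. The targets lie mostly at high signal, where differences were positive more often, and the part of signal level in this count was not tested. The NRF2 median was 0.024 against the mean of the other 18 compounds and 0.005 against fluconazole, where all probe sets had -0.021 and -0.003. Against penicillamine the NRF2 median was 0.103, where all probe sets had -0.066.

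The RefSeq promoter table (GRCm38.p6), which gives 250 bases before and 50 after a gene's start, held windows for 21 of the 28 measured targets. The core TGACNNNGC, searched on both strands, was in the windows of 8 of these 21 genes (38.1%), against 14% of 27025 genes in the table. The windows of Me1, Prdx1 and Gclm are shown because these genes have a core near the start and did not overlap between groups, with each core in capitals. Me1 lies at chr9:86695865-86696164 on the minus strand, Prdx1 at chr4:116685349-116685648 and Gclm at chr3:122245307-122245606, both on the plus strand. The core is read on the forward strand in Me1, where it starts 6 bases before the gene's start, and on the reverse strand in Prdx1 and Gclm.
Me1: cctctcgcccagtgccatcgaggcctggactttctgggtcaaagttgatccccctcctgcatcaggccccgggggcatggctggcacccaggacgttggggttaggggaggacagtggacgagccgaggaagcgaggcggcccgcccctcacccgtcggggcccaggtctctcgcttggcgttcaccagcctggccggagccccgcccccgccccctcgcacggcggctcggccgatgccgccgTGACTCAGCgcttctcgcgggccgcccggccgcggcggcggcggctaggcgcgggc
Prdx1: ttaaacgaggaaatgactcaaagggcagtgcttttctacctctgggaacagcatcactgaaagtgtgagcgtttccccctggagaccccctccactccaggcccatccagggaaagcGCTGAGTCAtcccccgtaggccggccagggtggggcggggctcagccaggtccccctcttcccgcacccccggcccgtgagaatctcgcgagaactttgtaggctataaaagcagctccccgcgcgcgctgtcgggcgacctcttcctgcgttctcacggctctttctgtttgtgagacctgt
Gclm: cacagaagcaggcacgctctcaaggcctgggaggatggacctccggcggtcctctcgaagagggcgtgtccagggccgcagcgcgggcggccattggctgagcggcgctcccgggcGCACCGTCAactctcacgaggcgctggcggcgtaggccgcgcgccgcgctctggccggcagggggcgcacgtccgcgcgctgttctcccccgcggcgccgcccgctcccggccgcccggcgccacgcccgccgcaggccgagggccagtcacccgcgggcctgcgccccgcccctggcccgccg
The windows of Nqo1, Cbr3 and Ephx1 held no such letters. A match describes these letters only, and sites farther away were not searched.

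Members of the NRF2 list are given by role. Nqo1, described above, and the carbonyl reductase gene Cbr3 led the enzymes of quinone and carbonyl reduction, and Cbr3 read 8.89, 8.89 and 8.78 on the thalidomide arrays, against 8.53, 8.39 and 8.67 on the DMSO arrays, a difference of 0.32 (SE 0.09) with an adjusted p of 0.519 in limma. Ephx1, which opens epoxides, read 9.35, 9.23 and 9.21 on the thalidomide arrays, against 9.06, 8.92 and 9.09 on the DMSO arrays, a difference of 0.24 (SE 0.09). Hmox1, which degrades heme, read 11.05, 11.12 and 11.12 on the thalidomide arrays, against 10.99, 10.85 and 10.99 on the DMSO arrays, a difference of 0.15 (SE 0.06). In each of these genes the lowest thalidomide value lay above the highest DMSO value. Me1, which supplies NADPH, differed by 0.13 (SE 0.06) and the glutathione reductase gene Gsr by 0.11 (SE 0.05). The peroxiredoxin gene Prdx1 differed by 0.14 (SE 0.07), and Gclm, a subunit of the enzyme that starts glutathione synthesis, by 0.12 (SE 0.06), with its catalytic partner Gclc at 0.08 (SE 0.09). The cystine transporter gene Slc7a11 differed by 0.02 (SE 0.09). Osgin1 was the only target lower at an unadjusted p under 0.05, at -0.17 (SE 0.08). The regulators themselves were close to 0, with Nfe2l2 at 0.02 (SE 0.06) and its inhibitor gene Keap1 at 0.06 (SE 0.06).

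Of 28 genes in the ATF4 amino acid response, which raises amino acid synthesis and transport when the kinases of the integrated stress response act, 26 were measured and none was called. At an unadjusted p under 0.05, 5 were higher and none was lower, against 2.3% and 5.31% of all probe sets. Without overlap 10 were higher and 1 was lower, against 6.94% and 8.3% of all probe sets. The median difference was 0.034, against -0.014 over all probe sets and 0.019 over those at or above the median level. Of the 26, 21 were above 0, where 61.7% of probe sets at or above the median level were positive. The list's mean signal lay above that level, between 9.61 and 9.64 on thalidomide arrays and between 9.55 and 9.61 on DMSO arrays. The part of signal level in these counts was not tested. The serine hydroxymethyltransferase gene Shmt2 read 11.73, 11.74 and 11.68 on the thalidomide arrays, against 11.55, 11.58 and 11.61 on the DMSO arrays, a difference of 0.14 (SE 0.05). Atf3 differed by 0.20 (SE 0.08), the pseudokinase gene Trib3 by 0.16 (SE 0.07) and the asparagine synthetase gene Asns by 0.10 (SE 0.05). In these genes no thalidomide value lay below a DMSO value. The ATF4 median was between 0.016, without DMSO array 3, and 0.082, with the letter b as a covariate, under 11 alternatives. Against the mean of the other 18 compounds the ATF4 median was -0.074, against fluconazole -0.055 and against penicillamine -0.014. Over all probe sets these medians were -0.021, -0.003 and -0.066.

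Hox genes, which pattern the body axis and are largely silent in undifferentiated embryonic stem cells, had 6 of 36 measured genes above 0, where 26.1% of all probe sets below the median level were positive. At an unadjusted p under 0.05, 1 was higher and 5 were lower, against 2.3% and 5.31% of all probe sets, and the Hox median was -0.068, against -0.062 over all probe sets below the median level. Without DMSO array 2 the median was -0.034 and none was lower at that p. With the interquartile range as a covariate the median was -0.01, with 14 genes above 0, and after quantile normalization it was -0.036. Their mean signal lay between 7.08 and 7.14 on thalidomide arrays and between 7.11 and 7.24 on DMSO arrays, below the median level of probe sets. Hoxd12 read 6.55, 6.57 and 6.68 on the thalidomide arrays, against 6.70, 7.05 and 6.81 on the DMSO arrays, a difference of -0.25 (SE 0.10). Cholesterol synthesis genes were above 0 for 16 of 19, where 61.7% of probe sets at or above the median level were positive, with a median of 0.06, and the sterol dehydrogenase gene Nsdhl differed by 0.13 (SE 0.05). The median of the cholesterol list was 0.018 with the interquartile range as a covariate, 0.028 without thalidomide array 2 and 0.03 without DMSO array 2. Against the mean of the other 18 compounds the cholesterol median was -0.098, against fluconazole -0.05 and against penicillamine -0.068. Lysosome and autophagy genes were above 0 for 19 of 25, with a median of 0.032 that became -0.006 with the interquartile range as a covariate, 0.01 after quantile normalization, 0.015 without thalidomide array 2 and 0.073 with the letter b as a covariate. There the autophagy gene Gabarapl1 differed by 0.22 (SE 0.07) and the cathepsin gene Ctsl by 0.14 (SE 0.04).

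The remaining lists held no called gene and few at an unadjusted p under 0.05. Of 26 naive pluripotency genes none was at that level, and the marker gene Zfp42 differed by 0.10 (SE 0.06). Of 11 formative and primed epiblast genes 10 were below 0, where 61.7% of probe sets at or above the median level were positive. Their mean signal lay between 9.42 and 9.43 on thalidomide arrays and at 9.48 on DMSO arrays. The median of this list was -0.019, against -0.014 over all probe sets and 0.019 at or above the median level. Sox3 stood at -0.14 (SE 0.06) and Fgf5 at -0.13 (SE 0.07). Of 15 measured p53 targets 1 was higher and 2 were lower at that p, against 2.3% and 5.31% of all probe sets. They were led by Plk2 at 0.26 (SE 0.07) and the death receptor gene Fas at -0.21 (SE 0.10). Of the 15, 12 were above 0, where 61.7% of probe sets at or above the median level were positive. Their median was 0.063, against 0.019 at or above that level. Without overlap 5 were higher and 2 were lower, against 6.94% and 8.3% of all probe sets. The p53 inhibitor gene Mdm2 differed by 0.10 (SE 0.05). The neuronal factor gene Neurod1 differed by 0.23 (SE 0.08), the Wnt receptor ligase gene Rnf43 by -0.23 (SE 0.07), the meiotic gene Sycp3 by 0.36 (SE 0.13) and the small heat shock gene Hspb6 by 0.20 (SE 0.07). Aryl hydrocarbon target Cyp1a1 differed by -0.15 (SE 0.10) and the drug efflux gene Abcb1b by 0.21 (SE 0.08). The lowest adjusted p of the genes named here was 0.519, for Plk2.

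A further contrast set thalidomide against the mean of the other 18 compounds and used no DMSO array. Here limma called 34 probe sets (0.156%), 23 higher (0.106%) and 11 lower (0.0505%). The direction of these calls moved with the scaling, to 26 higher and 42 lower with the interquartile range as a covariate and to 40 higher and 39 lower after quantile normalization. Leaving out 1 thalidomide array changed this count to 1 without array 1, to 3 without array 2 and to 11 without array 3, and the letter b as a covariate left 7. Thalidomide had the highest of the 20 group means for 10 of the 34 probe sets and the lowest for 4. For 33 of the 34 the DMSO mean lay on the same side of the compound mean as thalidomide. The share of all probe sets with this trait was not taken. At an unadjusted p under 0.05 in limma, 12 of the 34 also differed from DMSO, against 7.61% of all probe sets. The difference from DMSO had the same direction for 18 of the 23 higher and 6 of the 11 lower. Both contrasts use the same thalidomide arrays, which makes such overlap and shared direction likely in advance.

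Among the called probe sets the lowest was that of Chac1, which degrades glutathione and is an ATF4 target. Chac1 read 9.10, 9.23 and 9.20 on the thalidomide arrays, against 8.99, 9.25 and 9.07 on the DMSO arrays, and the groups overlapped, whereas the other 18 compound means ran between 9.05 and 10.66. Its difference from their mean was -0.44 (SE 0.06, adjusted p = 5.76e-05), and from DMSO 0.07 (SE 0.08). Chac1 was called under each of the 8 alternatives in which single calls were followed. The amino acid transporter genes Slc6a9 and Slc1a4 and the alanine aminotransferase gene Gpt2 were also lower than the mean of the other compounds, at -0.28, -0.25 and -0.22, and they differed from DMSO by 0.05, 0.07 and 0.06. In contrast Ppp4r1l-ps and Adgrb2, a brain adhesion receptor gene, had the lowest of all 20 means with thalidomide. Their differences from the other compounds were -0.22 and -0.19, and from DMSO -0.20 (SE 0.07) and -0.17 (SE 0.06). Also among the 10 largest called lower were Gm15155 at -0.32, Rnf157 at -0.23, the histone deacetylase gene Hdac11 at -0.20 and the proline synthesis gene Aldh18a1 at -0.18. For Rnf157 thalidomide ranked 12 of 20 and differed from DMSO by 0.05 (SE 0.07). Its thalidomide mean was 8.21, where the other 18 compound means had a median of 8.33 and a highest value of 9.43. The Gm15155 difference was -0.211 without thalidomide array 1.

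Among those called higher, Soga3 had the largest difference from the other compounds, 0.42 (SE 0.06, adjusted p = 5.76e-05), and it was called under 7 of these 8 alternatives, whereas Lgr4 and Tnfrsf11b were called under 5 and Spink1 and Slc40a1 under 4. Soga3 read 9.06, 8.87 and 8.95 on the thalidomide arrays, against 8.78, 8.74 and 8.85 on the DMSO arrays, and the groups did not overlap. Lgr4, the R-spondin receptor that raises Wnt signalling, read 11.38, 11.27 and 11.29 on the thalidomide arrays, against 11.12, 11.02 and 11.15 on the DMSO arrays, and its thalidomide mean was the highest of 20. Lgr4 exceeded the other compounds by 0.26 (SE 0.05, adjusted p = 0.00414) and DMSO by 0.22 (SE 0.06). The thalidomide mean was also the highest of 20 for Spink1, a trypsin inhibitor, for Tnfrsf11b, the decoy receptor osteoprotegerin, for C1galt1c1, a chaperone of O-glycan synthesis, and for the cytokine gene Il11. Their differences from the other compounds were 0.37, 0.26, 0.25 and 0.22. Il11 was named after its values were seen. The rest of the 10 largest called higher were 9330159F19Rik, Slco4c1, Serpinb9b and Cyp2b23, with differences between 0.32 and 0.36. Cyp2b23 differed from DMSO by 0.04 (SE 0.09). The iron exporter gene Slc40a1 exceeded the other compounds by 0.27 (SE 0.06, adjusted p = 0.0247) and differed from DMSO by 0.07 (SE 0.08).

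**Figure D4:**
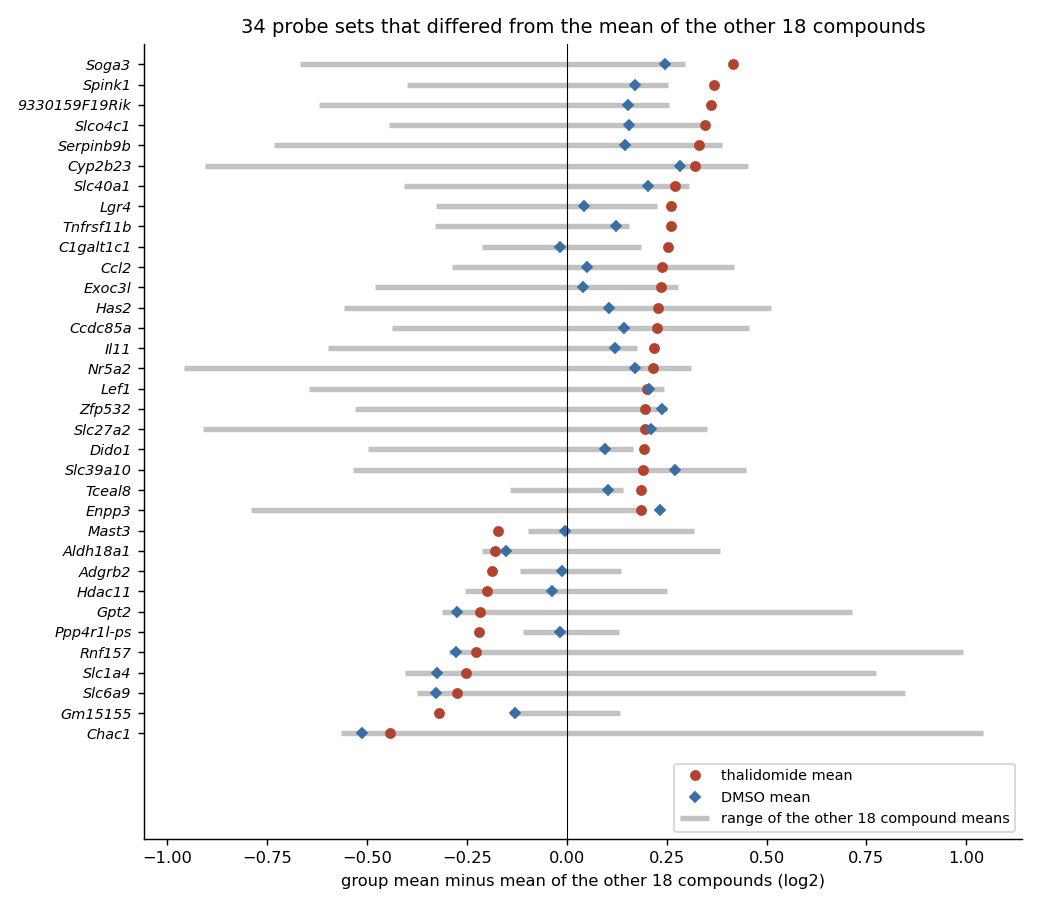
Group means of the 34 called probe sets, drawn relative to the mean over the other 18 compounds (log2, horizontal). Red points are thalidomide, blue diamonds DMSO, and grey bars the range of the other 18 compound means. The DMSO mean shares the side of thalidomide for 33 of 34, and Chac1 lies lowest.

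Set against each other group in turn, thalidomide differed least from fluconazole, an azole antifungal given at 1 mM. There 288 probe sets (1.32%) had an unadjusted p under 0.05 and 0 of 21789 (0%) were called by limma. The next counts at an unadjusted p under 0.05 were 933 against dimethadione and 980 against ondansetron, DMSO followed in the sixth place with 1658, and hydrochlorothiazide had the most with 9032. Fluconazole, like thalidomide, carries the letter b on arrays 1 and 3. Thalidomide array 3 and fluconazole array 3 were each other's nearest arrays of the series, with a root mean square difference of 0.101. Thalidomide arrays differed from each other by 0.121 to 0.14. Thalidomide array 3 was also the nearest array to DMSO array 1 (0.106) and to azacytidine array 1 (0.115). The median over pairs was 0.127 between thalidomide and fluconazole, 0.131 between thalidomide and DMSO and 0.121 among thalidomide arrays. Chac1 averaged 9.17 with thalidomide and 9.51 with fluconazole, a difference of -0.34 (SE 0.08) with an adjusted p of 1. For Cirbp the means were 9.77 with thalidomide and 9.75 with fluconazole. The doses differed, and a shared handling of the arrays cannot be told apart from a shared response.

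**Figure D5:**
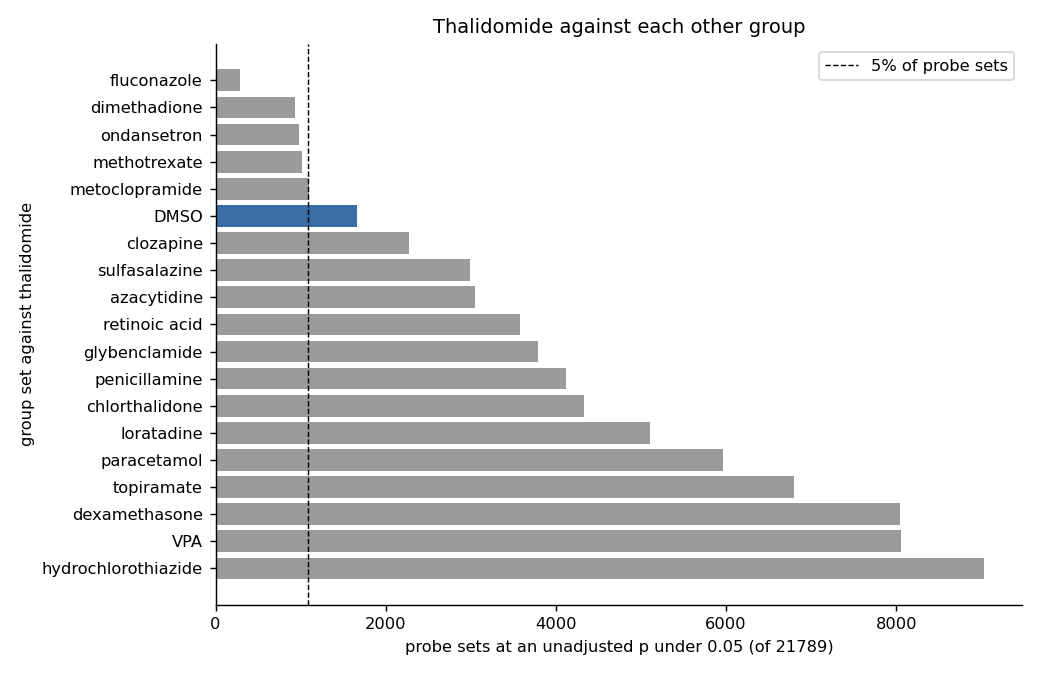
Number of probe sets, of 21789, at an unadjusted p under 0.05 between thalidomide and each of the other 19 groups (limma over 60 arrays). The DMSO bar is blue, and the dashed line marks 5% of probe sets. The fluconazole bar is the shortest with 288 and the hydrochlorothiazide bar the longest with 9032.

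Against penicillamine, a copper-chelating drug given at 1 mM, limma called 95 probe sets (0.436%), 33 higher (0.151%) and 62 lower (0.285%) with thalidomide. This direction turned after quantile normalization, with 73 higher and 37 lower, and without penicillamine array 2, with 9 higher and 1 lower, whereas the interquartile range as a covariate gave 44 higher and 376 lower. Penicillamine array 2 stood apart from the others of its group, with a median signal of 8.25 against 8.08 and 8.09. The count was 10 without it, 1023 without penicillamine array 1, 290 without array 3, and 3, 1 and 40 without thalidomide arrays 1, 2 and 3. With the 6 arrays of both groups alone it was 0. The DMSO mean lay between the thalidomide and penicillamine means for 92 of the 95 probe sets, and nearer to thalidomide for 59. These probe sets were chosen for a gap between thalidomide and penicillamine, which makes a DMSO mean between them likely in advance. The same shares over all probe sets were not taken.

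Of the 28 NRF2 targets 3 were called higher with thalidomide than with penicillamine, against 0.151% of all probe sets. Hmox1 averaged 11.10 with thalidomide and 10.63 with penicillamine, a difference of 0.47 (SE 0.06, adjusted p = 7.58e-05), and it was called under each of the 11 alternatives in which single calls were followed, but not with the 6 arrays alone, which gave no call and were not among the 11. Its DMSO mean was 10.94, between both. Penicillamine had the lowest of the 20 group means for Hmox1, and thalidomide ranked 13 from the top. For Nqo1 and Gclm thalidomide ranked 2 and 3. Nqo1 differed by 0.40 (SE 0.08, adjusted p = 0.0146) and Gclm by 0.32 (SE 0.06, adjusted p = 0.0225), and they were called under 9 and 7 of the 11. The metallothionein gene Mt2 was higher by 0.26 (SE 0.05, adjusted p = 0.0225), although it differed from DMSO by 0.03 (SE 0.05). Cirbp exceeded penicillamine by 0.31 (SE 0.07, limma adjusted p = 0.0374) and was called under 6 of the 11. Its means were 9.77 with thalidomide, 9.46 with penicillamine and 9.41 with DMSO. Among the largest differences were Asb7, a ubiquitin ligase adaptor gene, at 0.69 (SE 0.14, adjusted p = 0.0225), and Ufd1, which helps extract ubiquitylated proteins, at 0.51 (SE 0.10, adjusted p = 0.0146). Both were called under 8 of the 11, and without penicillamine array 2 the differences were 0.295 for Asb7 and 0.317 for Ufd1. The deubiquitinase gene Josd1 at 0.57 became 0.169 without that array, and the tubulin cofactor gene Tbce at 0.48 became 0.233. On the lower side Tmem38b, an intracellular cation channel gene, differed by -0.84 (SE 0.15, adjusted p = 0.00591) and was called under 8 of the 11. The spliceosomal RNA gene Rnu5g stood at -0.64 and the olfactory receptor gene Olfr1441 at -0.42. The chromatin remodeller gene Chd7 was lower on 7 of its 30 probe sets, with called differences between -0.42 and -0.29, and 29 of the 30 were below 0, where the median over all probe sets in this contrast was -0.066. The Hedgehog receptor gene Ptch1 differed by -0.25 (SE 0.05, limma adjusted p = 0.0328) and was called under 7 of the 11. Ptch1 differed from DMSO by -0.04 with thalidomide and by 0.21 with penicillamine. Mt2, Ptch1 and Cirbp were named in this contrast after their values were seen.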

How the data were processed

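RNA of 60 samples was labelled with biotin and hybridised to Affymetrix mouse gene arrays, and the log2 signal per probe set deposited by the authors was used as it stands. Per the submitters' processing notes the values came from RMA, for which the sources used here give neither a version nor a genome build. RMA usually ends with arrays of like distribution, but here the interquartile ranges of the 60 arrays over the probe sets tested still ran between 2.65 and 3.15, and a wider array sets dim and bright probe sets further apart. Depth has no meaning for arrays, and 3 arrays a group limit the precision. Gene symbols came from the platform annotation: 21789 of 35556 probe sets had 1 symbol, 1621 had several and 12146 had none, and 21698 of the 21789 matched RefSeq by gene identifier.

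A mean per group was fitted over all 60 arrays with limma 3.58.1 in R 4.3.3 (40 residual and 7.312 prior degrees of freedom), followed by Benjamini-Hochberg adjustment within each contrast over all 21789 probe sets. A probe set was called at an adjusted p under 0.05. The fit was tested on simulated data. With 3 arrays against 3, an exact permutation test cannot go below p = 0.1, so none was used. In the 35 gene lists each gene was read by its brightest probe set over 60 arrays, and lists were described by counts and medians without a test. The genes named were all measured cereblon and Sall genes, the 14 lowest p-values per direction among groups that did not overlap, 4 genes per list, 9 genes fixed by name (8 of them on a probe set with 1 symbol), and the 10 or 5 largest called differences per direction in the other contrasts. Further NRF2 targets were named by their role after their values were seen, as were the genes marked so in the text. The members and lists were chosen with earlier results of these data known. Alternatives covered quantile normalization, a filter on dim probe sets, all probe sets, the arrays of a pair alone, the variance prior, the letter b, the interquartile range and each array left out. Those for the gene list medians were chosen after seeing the data. No genome was used, so gene coordinates are given only for promoter windows.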

Additional observations from a re-analysis of the deposited data

Results flagged for a closer look

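Outside the probe sets with 1 symbol lie 13767 probe sets with none or several. When these were tested with the rest, 4 of them were called between thalidomide and the mean of the other 18 compounds and 38 between thalidomide and penicillamine, while 0 were called between thalidomide and DMSO or between thalidomide and fluconazole (limma). They carry no single gene name here and were used in no result of the report.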

How the results depend on the processing

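No paired analysis was possible because replicate numbers follow the order of the samples and pair nothing across groups. Each setting changed 1 choice. Calls between thalidomide and DMSO numbered 0 as reported, 3 with the letter b as a covariate (Cirbp, Cd68 and Fndc10), 2 among probe sets at or above the median level (Cirbp and Cyb561a3) and 0 to 1 with an array left out, where Cirbp was called without thalidomide array 1. They numbered 0 after quantile normalization, with all probe sets, with the 6 arrays alone, with the trend and robust prior and with the interquartile range as a covariate. The share of 95% intervals inside 1.5-fold was 98.65 to 99.53% with an array left out. Against the other 18 compounds the 34 calls became 68 with the interquartile range (38.2% higher, against 67.6% as reported), 7 with the letter b, 57 at or above that level, 79 after quantile normalization (50.6% higher) and 1 to 11 with an array left out. Of the 34, 33 were among the 79. Against penicillamine the 95 calls became 0 with 6 arrays alone, 420 with the interquartile range (10.5% higher, against 34.7% as reported), 195 with the letter b, 201 at or above that level and 1 to 1023 with an array left out, and 110 after quantile normalization (66.4% higher). Calls against fluconazole were 0 throughout. Differences from DMSO near 0 changed sign. With the letter b they became 0.02 for Bsg, 0.006 for Cul4a, -0.016 for Cul4b, 0.016 for a Kcnma1 probe set, -0.004 for Prkaa1, 0.002 for Sall4 and 0.006 for Zfp692. With the interquartile range they became 0.002 for Dkk1, 0.065 for Ikzf3, -0.013 for Nfe2l2 and Rnf166 and 0.013 for Tnf, and the lysosome median -0.006. After quantile normalization they became -0.003 for Ddb1, -0.001 for Nfe2l2 and -0.005 for Rnf166. With an array left out the ranges were -0.067 to 0.074 for Cul4a, -0.003 to 0.028 for Ddb1, -0.002 to 0.107 for Fgf10, -0.151 to 0.049 for Ikzf3, -0.004 to 0.056 for Nfe2l2, -0.019 to 0.055 for Rnf166, -0.145 to 0.003 for Tnf and -0.04 to 0.005 for Zfp692. The cause of these shifts was not tested.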
